A study of Homo sapiens with 6 samples.

Results

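The 14-3-3 proteins were examined at the RNA level in MDA-MB-436, a cell line from a triple-negative breast cancer with mutated BRCA1, with and without MUC1-C silencing. The 7 human genes of the family, SFN, YWHAB, YWHAE, YWHAG, YWHAH, YWHAQ and YWHAZ, were taken by gene symbol from a table of 37887 rows, and all 7 were among the 15355 genes that passed the filter on low counts. SFN was selected on its rise in the contrast described here, so its values are given as a description with no test. The 6 YWHA genes were added as its relatives whatever their values. Cells of both groups carried the same tetracycline-inducible MUC1 shRNA vector and had been selected with puromycin. The 3 control libraries came from cells given vehicle (0.1% DMSO), and the 3 shMUC1 libraries from cells treated with 500 ng/ml doxycycline (DOX). Titles call the first group a control shRNA, while the treatment labels and the design text describe vehicle, which was the reading used. How long the cells were treated is not stated in the labels. No library of DOX-treated cells without the MUC1 shRNA was analysed here, so that silencing and DOX itself cannot be told apart.

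The 14-3-3 proteins are small acidic adaptors that form dimers and bind partner proteins at phosphorylated serine or threonine. By doing so they hold cell cycle phosphatases, death-promoting proteins and transcription factors in the cytoplasm or change their activity. SFN encodes 14-3-3 sigma (stratifin), the member restricted mostly to epithelial cells, which is known to block entry into mitosis after DNA damage and as a gene often silenced by promoter methylation in breast cancer. The YWHA genes encode the beta (YWHAB), epsilon (YWHAE), gamma (YWHAG), eta (YWHAH), theta (YWHAQ) and zeta (YWHAZ) proteins, which are found in most tissues.

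SFN is a gene of a single annotated exon on chromosome 1, at 26863138 to 26864457 on the plus strand (GENCODE 29, GRCh38). Its window of 250 bases before to 50 bases after the RefSeq start (GRCh38.p14, chr1:26862899-26863198, plus strand) held 7 CG dinucleotides, against a median of 14 over 35116 such windows, of which 39.3% had as few. The windows of the 5 YWHA genes with an entry, YWHAB, YWHAE, YWHAG, YWHAH and YWHAQ, held from 29 to 44. The windows of SFN and of YWHAG (chr7:76358942-76359241, minus strand), which carried the largest changes up and down among the genes with an entry, are shown from 5′ to 3′ with each CG in capitals.
SFN: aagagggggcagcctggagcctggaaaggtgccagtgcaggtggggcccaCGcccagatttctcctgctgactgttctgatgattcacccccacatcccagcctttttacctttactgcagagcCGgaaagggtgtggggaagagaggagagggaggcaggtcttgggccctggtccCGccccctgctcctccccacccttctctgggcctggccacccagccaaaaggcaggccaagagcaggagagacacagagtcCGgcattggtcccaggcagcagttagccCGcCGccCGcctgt
YWHAG: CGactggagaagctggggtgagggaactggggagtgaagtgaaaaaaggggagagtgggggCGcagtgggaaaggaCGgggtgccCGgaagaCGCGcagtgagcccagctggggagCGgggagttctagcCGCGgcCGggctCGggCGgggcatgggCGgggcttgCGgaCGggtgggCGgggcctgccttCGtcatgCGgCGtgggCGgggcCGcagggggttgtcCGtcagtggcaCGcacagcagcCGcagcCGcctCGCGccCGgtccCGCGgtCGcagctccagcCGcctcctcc
The GC box GGGCGG, searched on both strands, occurred 2 times in the SFN window and 4 times in that of YWHAG, and 45% of all windows held it at least once. DNA methylation was not measured here, and these counts describe letters only.

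Library totals ran from 18678307 to 27825546 counts. MUC1, the target of the shRNA, had 93, 84 and 102 counts in the control libraries and 72, 51 and 34 in shMUC1 libraries. Scaled to library size as CPM (counts in 1000000), MUC1 stood at 3.88 ± 0.401 against 2.14 ± 0.412 (SD, n = 3 each), without overlap. The log2 fold change was -0.84 (SE 0.214), and its adjusted p was 0.00119 (edgeR's quasi-likelihood test, Benjamini-Hochberg over all tested genes, as for each adjusted p given here). The MUC1 count is uncertain, because 48 of its exon bases also belong to AL713999.1. Of the markers listed for the line, VIM, a mesenchymal filament gene, was at 718 ± 26.0 CPM in control and 417 ± 25.2 CPM in shMUC1 libraries (SD, n = 3 each; log2 fold change -0.78, edgeR adjusted p 2.1e-20). KRT8, a simple-epithelium keratin, was at 426 ± 15.0 and 825 ± 14.6 CPM (SD, n = 3 each; log2 fold change 0.95, edgeR adjusted p 1.05e-24), and KRT18 was at 131 and 266 CPM. KRT8 and KRT18 thus rose along with SFN, while VIM fell. What part these markers had in the SFN result was not tested. ESR1 and PGR had at most 12 counts in any library and ERBB2 stood at 44.7 ± 2.41 CPM in control (SD, n = 3).

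SFN was barely expressed in vehicle-treated cells and stood at a moderate level in silenced cells. Its counts were 22, 16 and 17 in the control libraries and 1632, 1558 and 1036 in the shMUC1 libraries. Scaled to library size, these were 1.003, 0.657 and 0.658 CPM against 59.1, 60.5 and 55.7 CPM. Every shMUC1 library lay above every control library, and the lowest shMUC1 count belonged to the library with the smallest total. The mean was 0.773 ± 0.2 CPM in control and 58.4 ± 2.47 CPM in shMUC1 libraries (SD, n = 3 each), with a fitted fold change of 76.1 (log2 6.25, SE 0.122), which had rank 2 among the 15355 genes tested. With so few control counts the size of the fold rests on the control libraries, and without control replicate 1 the log2 value was 6.47. The 50-base words of the SFN transcript were found in no other annotated gene. In bulk RNA, a rise in all cells and the appearance of a subset of cells with high SFN cannot be told apart.

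**Figure D1:**
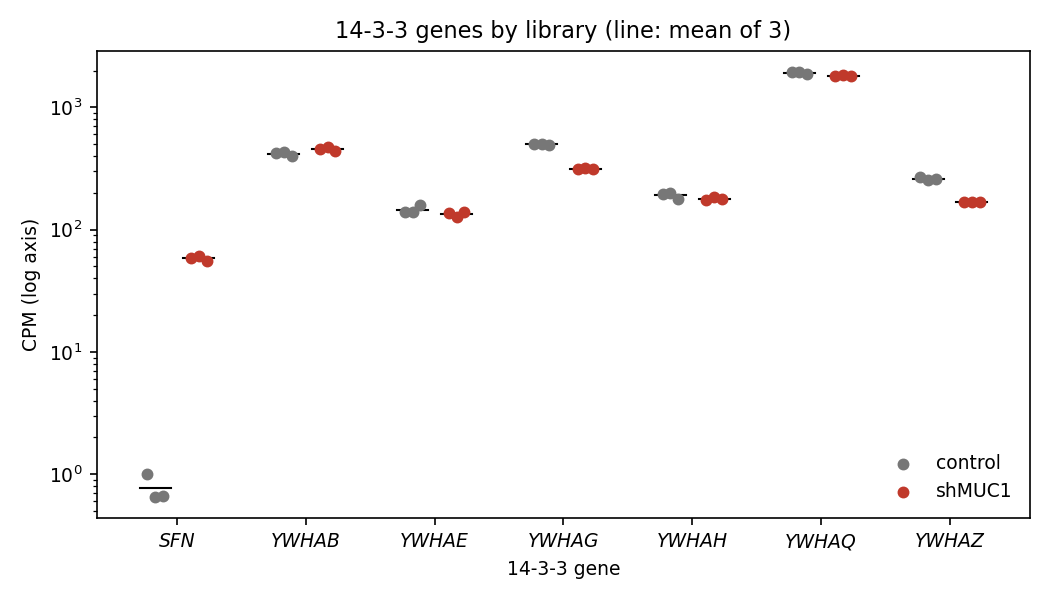
CPM (counts in 1000000 counts, log axis) of the 7 14-3-3 genes in each of the 3 control (grey) and 3 shMUC1 (red) libraries, with a line at each group mean. SFN lies at or below 1.003 CPM in control and between 55.7 and 60.5 CPM in shMUC1 libraries, while each YWHA gene stays above 100 CPM in all 6.

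The YWHA genes moved far less, and mostly downward. At an adjusted p under 0.05 in the fit over all genes, 1 of the 6 was higher in shMUC1 cells, where 25.2% of all tested genes were, and 4 were lower, where 23.6% were. None of the 6 passed a fold change over 2 as well, a threshold passed by 5.95% of all tested genes. The ranges of the groups in CPM were separate for 5 of the 6, and for 54.8% of all tested genes. The counts over these 6 genes are therefore read one gene at a time.

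YWHAG and YWHAZ carried the larger falls. YWHAG (14-3-3 gamma, known to bind the mitotic phosphatase CDC25C and RAF kinases) stood at 503, 497 and 494 CPM in control and 315, 319 and 311 CPM in shMUC1 libraries. All shMUC1 libraries were below all control libraries, and the replicates within a group differed by less than 2% of their mean (SD). YWHAG went down by 36.8%, a log2 fold change of -0.66 (SE 0.0307, 95% interval -0.72 to -0.60), with an edgeR adjusted p of 6.67e-20. YWHAZ (14-3-3 zeta, a partner of BAD and of the FOXO factors that is often abundant in tumours) stood at 267, 256 and 261 CPM in control and 167, 168 and 167 CPM in shMUC1 libraries. Again no library overlapped the other group. YWHAZ went down by 35.9%, a log2 fold change of -0.64 (SE 0.0347, 95% interval -0.71 to -0.57), with an edgeR adjusted p of 6.44e-18. The log2 fold change was at or below that of YWHAG in 9.25% and at or below that of YWHAZ in 9.7% of all tested genes, and the median of all tested genes was 0.000583.

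YWHAB was the only YWHA gene that was higher. YWHAB (14-3-3 beta, a regulator of RAF kinases) stood at 422, 429 and 402 CPM in control and 459, 475 and 437 CPM in shMUC1 libraries. The lowest shMUC1 library lay just above the highest control library. The difference was 9.47%, or 0.13 on the log2 scale (SE 0.0334), with an edgeR adjusted p of 0.00129.

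YWHAQ, YWHAE and YWHAH had small differences, and each of the 3 changed its side of the threshold in at least 1 alternative. YWHAQ (14-3-3 theta) stood at 1935, 1946 and 1868 CPM in control and 1804, 1826 and 1809 CPM in shMUC1 libraries, with no overlap between groups and a log2 fold change of -0.08 (SE 0.0255, edgeR adjusted p 0.00889). The call on YWHAQ was lost without control replicate 1 (edgeR adjusted p 0.0654) and without shMUC1 replicate 1 (edgeR adjusted p 0.0533). YWHAE (14-3-3 epsilon) stood at 139, 139 and 158 CPM in control and 136, 128 and 139 CPM in shMUC1 libraries. Its control libraries 1 and 2 lay next to the shMUC1 range, and control replicate 3 stood apart from both. The log2 fold change of YWHAE was -0.12 (SE 0.0447, edgeR adjusted p 0.026), and without control replicate 3 it was -0.0649 with an edgeR adjusted p of 0.231. That call was also lost without shMUC1 replicate 1 or 2 (edgeR adjusted p 0.0508 and 0.19). YWHAH (14-3-3 eta) stood at 196, 198 and 179 CPM in control and 175, 184 and 179 CPM in shMUC1 libraries, and here the groups overlapped. Its log2 fold change was -0.09 (95% interval -0.17 to -0.0119), with an edgeR adjusted p of 0.0517 that fell under 0.05 in 8 of 16 alternatives.

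**Figure D2:**
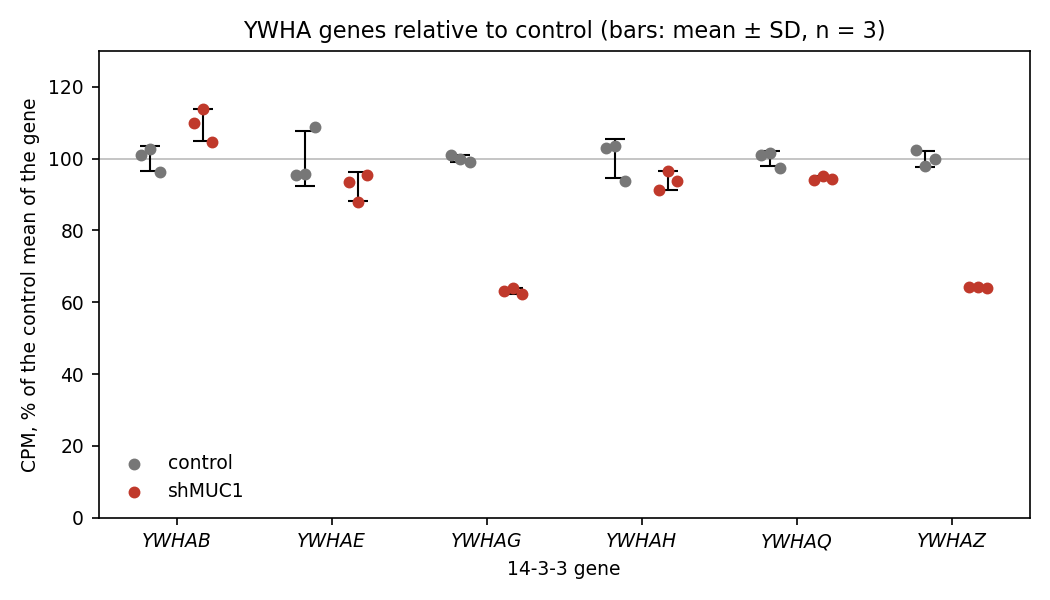
CPM of the 6 YWHA genes as a percentage of the control mean of each gene, with points for the 3 control (grey) and 3 shMUC1 (red) libraries and bars for the mean ± SD (n = 3). YWHAG and YWHAZ in shMUC1 libraries lie clear of control, 36.8% and 35.9% lower by the fitted values, whereas the other 4 genes lie within a narrow band around control.

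Reads could be shared with copies of these genes, since YWHA genes have many processed pseudogenes. The table held 20 rows of such pseudogenes, 11 of them with a count, and in all they had from 157 to 252 counts per library. Those of YWHAZ, mainly YWHAZP2 and YWHAZP3, had 129, 162 and 127 counts in control and 78, 86 and 78 in shMUC1 libraries, at most 2.6% of the YWHAZ count. Those of YWHAE, mainly YWHAEP5, reached 3.72% of the YWHAE count. Adding pseudogene counts to the parent genes left each of the 6 YWHA genes on the same side of the threshold. Any reads counted for neither parent nor copy could not be added back in this way. Of the distinct 50-base words in the annotated transcripts, other genes shared 6.77% of those of YWHAZ, 2.88% of YWHAE, 2.24% of YWHAH and 1.73% of YWHAQ, and none of those of YWHAB and YWHAG. YWHAH shares 105 exon bases with Z82190.2 on the same strand and 22 with C22orf24 on the opposite strand, so its count is uncertain.

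To compare levels between members, CPM were divided by the length of the annotated exons in kilobases. These lengths pool the exons of all annotated transcripts: 1320 bases from 1 transcript for SFN, 3847 from 13 for YWHAE and 8555 from 23 for YWHAZ. A gene with many transcripts can be placed too low in this way. Which transcripts were expressed was not examined, so places between genes, also that of SFN above YWHAZ, are approximate. On this scale the order in control was YWHAQ, YWHAG, YWHAH, YWHAB, YWHAE, YWHAZ and SFN, in each of the 3 libraries. The levels per length were 706 ± 15.6 for YWHAQ, 133 ± 1.29 for YWHAG, 77.9 ± 4.19 for YWHAH, 52.7 ± 1.77 for YWHAB, 37.8 ± 2.9 for YWHAE, 30.5 ± 0.678 for YWHAZ and 0.586 ± 0.151 for SFN (SD, n = 3 each). No neighbours in this order overlapped between libraries. In shMUC1 cells SFN had rank 5, at 44.3 ± 1.87, above YWHAE at 34.9 ± 1.49 and YWHAZ at 19.6 ± 0.0728 (SD, n = 3 each), in each of the 3 libraries. YWHAG stood at 84.0 ± 1.15 there and YWHAH at 73.1 ± 2.02, also without overlap, YWHAB at 57.6 ± 2.38 and YWHAQ at 668 ± 4.22 (SD, n = 3 each). Close places depended on the length used: with the longest transcript of each gene, SFN came below YWHAE and YWHAH came above YWHAG in all 3 shMUC1 libraries, and YWHAE came above YWHAB in control replicate 3.

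In the make-up of the family RNA, the shares of SFN, YWHAB, YWHAG and YWHAZ differed between groups by more than their spread. SFN made up 0.0563% ± 0.014 of the sum of the 7 genes per length in control and 4.51% ± 0.16 in shMUC1 cells (SD, n = 3 each). YWHAG went from 12.8% ± 0.173 to 8.55% ± 0.0542 and YWHAZ from 2.94% ± 0.0858 to 1.99% ± 0.0117 (SD, n = 3 each). YWHAB went from 5.07% ± 0.0795 to 5.87% ± 0.198 (SD, n = 3 each). YWHAQ held 68.0% ± 0.243 and 68.1% ± 0.257 (SD, n = 3 each). The sum of the 6 YWHA genes per length was 1038 ± 19.5 in control and 937 ± 7.47 in shMUC1 cells, and with SFN added it was 1039 ± 19.6 and 982 ± 8.88 (SD, n = 3 each). Control and shMUC1 libraries did not overlap in either sum.

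**Figure D3:**
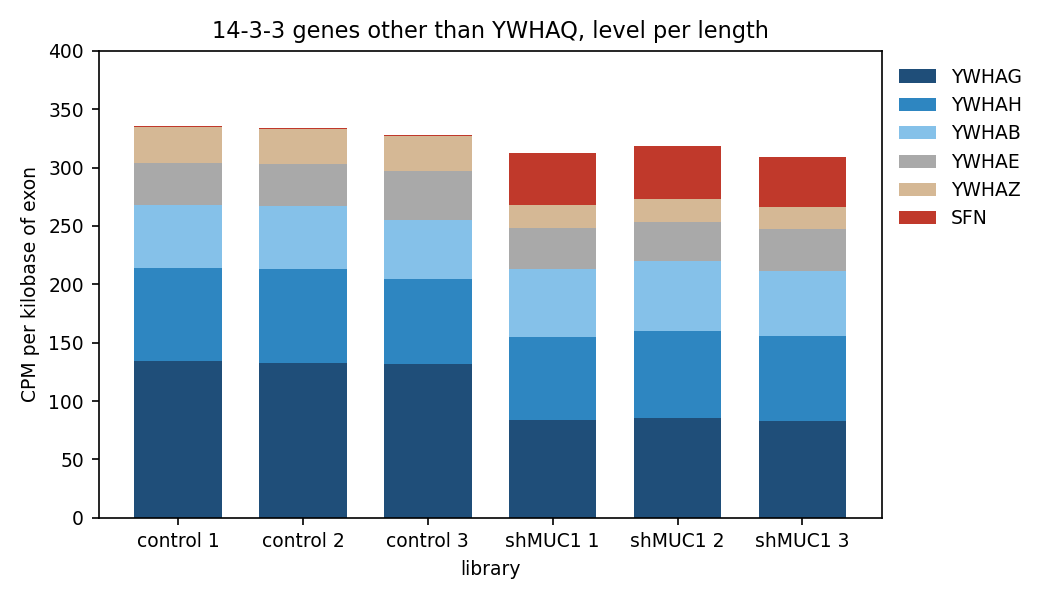
CPM per kilobase of exon of the 14-3-3 genes other than YWHAQ, stacked for each library. SFN, at 0.76 or less in control, adds between 42.2 and 45.8 in the shMUC1 libraries, while the YWHAG part narrows from a mean of 133 to 84.0.

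The 3' untranslated regions (3' UTRs) of the members were searched for the word TCAGTA. It was picked because earlier results of these data had tied its longer form ATCAGTA to lower RNA in shMUC1 cells. That link was not tested here. The word was thus chosen from this contrast, and its presence supports nothing here. In the longest annotated 3' UTR of each gene, SFN (498 bases) and YWHAB (2094 bases), the members with higher values in shMUC1 cells, held no TCAGTA. The other 5 members held it once each, YWHAQ and YWHAH as well as YWHAG and YWHAZ, and no member held ATCAGTA. Among tested genes, 35.2% of 12986 with an annotated 3' UTR held TCAGTA, and 51% of the 7957 with one over 1000 bases. The sites of YWHAG (chr7:76329223-76329244, minus strand), YWHAQ (chr2:9584840-9584861, minus strand), YWHAE (chr17:1344669-1344690, minus strand) and YWHAH (chr22:31957306-31957327, plus strand; GRCh38) are shown with the word in capitals as 4 of the 5 matches, since each is the single match in its 3' UTR. The match in YWHAZ, also single, is named only. MUC1 (chr1:155187764-155187786, minus strand) is shown with its ATCAGTA, from the longest annotated 3' UTR of the gene (731 bases). That 3' UTR belongs to a transcript of 1189 bases, while the longest annotated MUC1 transcript has 4170 bases. The place of this site in other MUC1 transcripts, in a 3' UTR or in coding sequence, was not examined.
YWHAG: gccctcatTCAGTAagttctgt
YWHAQ: gtttccttTCAGTAagcaactt
YWHAE: tcttttgtTCAGTAtgtgtaac
YWHAH: gtgaggttTCAGTAgctccttg
MUC1: acagttcaATCAGTAtaaaacgg
Among the 5 members with a single TCAGTA, the log2 fold change was -0.66 (SE 0.0307) for YWHAG and -0.64 (SE 0.0347) for YWHAZ. It was -0.12 (SE 0.0447) for YWHAE, -0.09 (SE 0.039) for YWHAH and -0.08 (SE 0.0255) for YWHAQ.

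The 6 tested genes nearest to SFN had smaller changes than SFN. SFN was selected on its rise and had rank 2 among the 15355 genes tested, so its larger change follows from that choice. Whether the rise was local to SFN was not tested. The 3 nearest tested genes on each side on chromosome 1 were ARID1A, PIGV and ZDHHC18 before SFN and GPN2, GPATCH3 and NUDC after it. ZDHHC18, a protein palmitoyltransferase whose end lies 5536 bases from SFN, went from 40.1 ± 3.05 to 49.3 ± 0.6 CPM (SD, n = 3 each), with a log2 fold change of 0.30 (SE 0.0614, edgeR adjusted p 9.36e-05). GPN2, a GTPase gene 11676 bases away on the other side, went from 54.8 ± 3.76 to 47.1 ± 0.893 CPM (SD, n = 3 each), with a log2 fold change of -0.22 (SE 0.058, edgeR adjusted p 0.00196). ARID1A, a subunit of the SWI/SNF complex, was lower by -0.44 on the log2 scale (SE 0.036, edgeR adjusted p 6.71e-13). PIGV, GPATCH3 and NUDC had log2 fold changes of -0.04, 0.19 and -0.05 and did not pass the test (edgeR adjusted p 0.834, 0.201 and 0.33). Of all tested genes, 25.2% passed with a rise, like ZDHHC18, and 23.6% passed with a fall, like GPN2 and ARID1A.

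**Figure D4:**
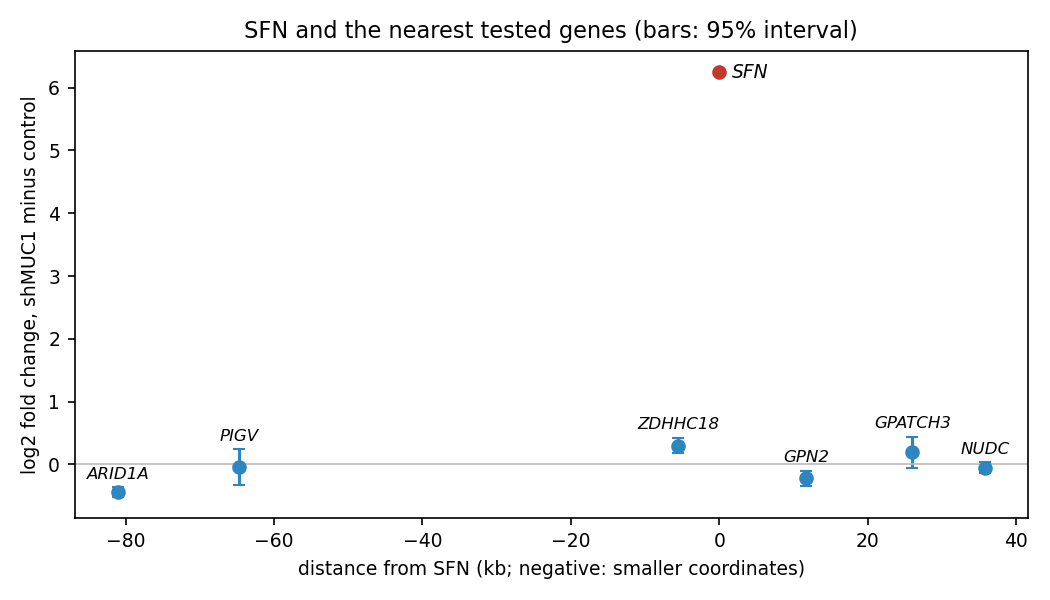
Log2 fold change (shMUC1 minus control) of SFN and the 3 nearest tested genes on each side, by distance from SFN in kilobases, with 95% intervals for the neighbours. SFN stands at 6.25, and the 6 neighbours lie between -0.44 and 0.30.

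The genes whose pattern over the 6 libraries was most like that of SFN were found by the distance between log2 CPM centred on the mean of each gene, over the 13820 tested genes whose mean count was 20 or more. The 5 nearest were COL17A1 (a collagen of hemidesmosomes), ALPP (placental alkaline phosphatase), KRT6A (a keratin of activated stratified epithelium), TSPAN1 (a tetraspanin of epithelial cells) and MAP7 (a microtubule-binding protein), at distances from 1.93 to 3.15. MAP7 had the highest level of these, with 222, 208 and 226 counts in control and 2132, 2016 and 1290 counts in shMUC1 libraries. KRT6A had 2, 4 and 2 counts in control and 195, 167 and 96 in shMUC1 libraries, and it has near-identical keratin copies, so its count is uncertain. Like SFN, these 5 genes were picked by their values in this contrast and are given as a description. KRT6A also belongs to the list of stratified epithelium genes, where it is counted among those tested.

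Genes known to act on SFN were followed as a list of 9 written from general knowledge. At an adjusted p under 0.05 1 was higher and 4 were lower, with a median log2 fold change of -0.09, against 3866 higher and 3617 lower of 15355 and a median of 0.000583 over all tested genes. The methyltransferases that lay down new DNA methylation had the larger differences. DNMT3A went from 27.5 ± 1.29 to 15.0 ± 0.956 CPM (SD, n = 3 each), with a log2 fold change of -0.87 (SE 0.0846, edgeR adjusted p 5.22e-11). DNMT3B went from 18.2 ± 0.894 to 9.49 ± 1.46 CPM (SD, n = 3 each), with a log2 fold change of -0.95 (SE 0.108, edgeR adjusted p 1.88e-09). DNMT1, the maintenance enzyme, was at -0.09 (edgeR adjusted p 0.0394), a call that was lost in 6 of 16 alternatives. BRCA1, known to act on SFN transcription but mutated in this line, had a log2 fold change of -0.29 (SE 0.0299, edgeR adjusted p 1.65e-10). CHUK, which guards SFN from silencing in keratinocytes, was at 0.14 (edgeR adjusted p 0.0388), a call that was lost in 7 of 16 alternatives. TP73, TRIM25, COP1 and TP63 were at -0.31, -0.07, 0.02 and 0.22 and did not pass the test (edgeR adjusted p 0.122, 0.3, 0.779 and 0.695). TP63 had 12 to 40 counts per library. The value of TP63 turned negative without control replicate 1 or 2. What part any of the listed regulators had in the SFN result was not tested.

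Among genes of partner proteins bound by the 14-3-3 family, more were higher than lower, mostly by small amounts. All 44 listed partners were tested, 20 were higher (45.5%, against 25.2% of all tested genes), 6 were lower (13.6%, against 23.6%) and 18 did not pass. Their median log2 fold change was 0.10, against 0.000583 over all tested genes. The list was written from general knowledge with earlier results of these data known, so these counts are a description only. The list held 6 genes of entry into mitosis and the cell cycle, which were singled out for their role after their values were seen. CDC25A, a phosphatase that activates cyclin-dependent kinases, was at 0.34 on the log2 scale (edgeR adjusted p 2.42e-07), and WEE1, the kinase that opposes it, was at -0.32 (edgeR adjusted p 1.86e-07). CDK1, CCNB1, CDC25B and CDC25C were at -0.0021, 0.03, -0.04 and -0.19 and did not pass (edgeR adjusted p 0.969, 0.514, 0.354 and 0.0901). By the naming rule, FOXO4 (a FOXO transcription factor) was at 1.23, KRT18 (a simple-epithelium keratin) at 1.02 and NEDD4L (a ubiquitin ligase) at 0.55 on the log2 scale, with edgeR adjusted p of 0.00567, 2.53e-23 and 4.18e-15. FOXO4 had 10 to 54 counts per library, and its call was lost without shMUC1 replicate 1 (edgeR adjusted p 0.0523). ULK1, a kinase that starts autophagy, was at -1.13 (SE 0.0818) and KSR1, a scaffold of the RAF pathway, at -0.72 (SE 0.136), with edgeR adjusted p of 2.3e-14 and 2.73e-05.

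SFN is a marker of stratified epithelium, and genes of that tissue were followed as a list written from general knowledge. Of 32 genes listed, 17 passed the filter on low counts and were tested. Of these, 13 were higher (76.5%, against 25.2% of all tested genes), 1 (DSC3, a desmosomal cadherin) was lower (5.88%, against 23.6%) and 3 did not pass, with a median log2 fold change of 0.86 against 0.000583 over all tested genes. These counts lean upward by construction, because a gene low in control could pass the filter through the shMUC1 libraries alone, and they are a description only. KRT6A (at most 4 control counts) and KRT16 (at most 8), keratins of activated epithelium, were low in control in this way, as was KRT17 (at most 14). KRT5 and KRT14, the keratins of basal cells, had at most 19 and 7 counts in any library and were not tested. DSP, the plaque protein of desmosomes, went from 98.4 ± 1.85 to 270 ± 13.4 CPM (SD, n = 3 each), with a log2 fold change of 1.46 (SE 0.0394, edgeR adjusted p 4.2e-27). PKP3, a desmosomal plakophilin, was at 1.41, LAMB3, a laminin chain of the basement membrane, at 1.45 and CDH3, P-cadherin, at 1.31 on the log2 scale (edgeR adjusted p 8.73e-19, 1.5e-19 and 8.41e-07). The listed genes of terminal differentiation were near or at 0: IVL and SPRR1B had at most 4 counts in any library, and LGALS7, LGALS7B, SPRR1A and S100A9 had 0 in all 6 (in the shallowest library a level of up to 0.161 CPM could give no count). Of 10 markers of an epithelial-type line, 4 were tested and 3 (CDH1, EPCAM and ELF3) were higher (75%, against 25.2% of all tested genes). KRT7 did not pass (log2 fold change 0.21, edgeR adjusted p 0.608). The same filter leans this count upward, since CDH1 had 2, 9 and 26 counts in control and 156, 170 and 108 in shMUC1 libraries. Summed over all 10 markers, the level was 7.43 to 9.77 CPM in control and 35.4 to 37.7 CPM in shMUC1 libraries. GRHL2 and OVOL1 had 0 counts in every library, KRT19 and RAB25 had 0 in every shMUC1 library, and ESRP1 and CLDN7 had at most 5 in any. The part of these markers in the SFN result was not tested. Fibroblast markers summed to between 8.33 and 11.0 CPM in control and between 3.66 and 4.34 CPM in shMUC1 libraries, and the leukocyte markers to 1.08 CPM or less in all 6.

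**Figure D5:**
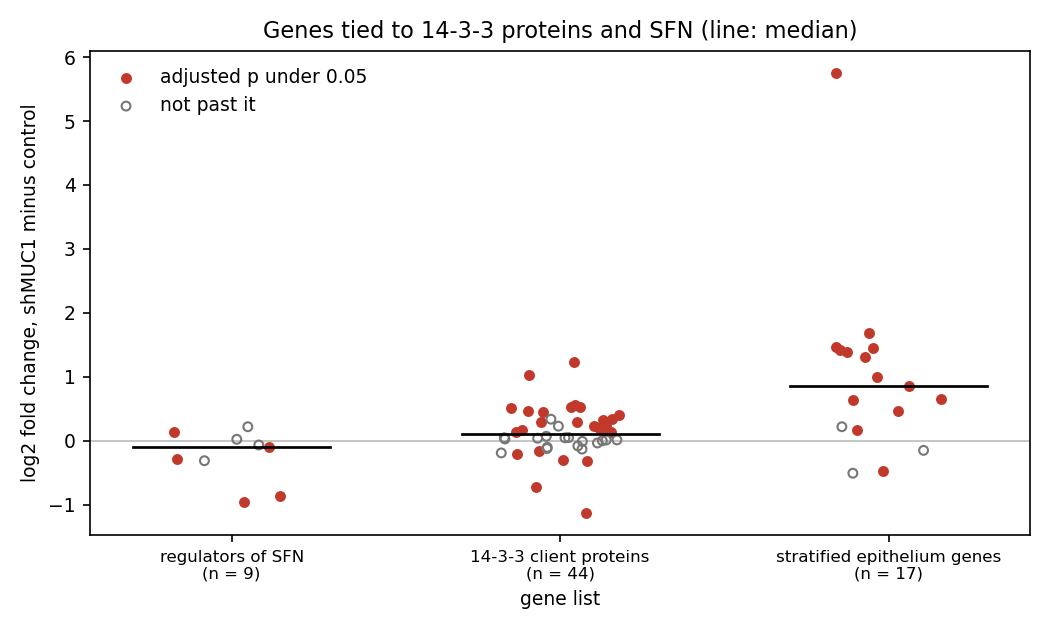
Log2 fold change (shMUC1 minus control) of each tested gene in 3 lists around SFN and the 14-3-3 proteins, filled where the edgeR adjusted p is under 0.05 and open where it is not, with a line at each median. The stratified epithelium list has a median of 0.86, which leans upward through the filter on low counts, and the other lists have medians of -0.09 and 0.10.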

How the data were processed

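RNA-seq libraries came from 6 cultures per the labels (3 per group), made with a stranded poly(A) kit. The deposited table gives raw counts by gene symbol, with a column for each library. The submitters' processing notes name CASAVA 1.8.2, STAR 2.7.9a, featureCounts, DESeq2 1.24.0 and GRCh38.p7, while the annotation release and the strand setting are not given in the sources used here. Of values from 1 to 20, 68.8% to 70.5% were even in each library, a pattern that counting each mate separately would give, so halved counts were tried. Within groups, libraries differed beyond sampling noise (chi-square over its degrees of freedom, 2.79 to 5.55), and none was treated as a duplicate. Whether the cultures were independent is not stated beyond triplicates, so p-values weigh group differences against the variation between these samples only.

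Counts were tested with edgeR 4.0.16 (quasi-likelihood, TMM, filterByExpr, two-sided, Benjamini-Hochberg over 15355 genes, group as the only term) in R 4.3.3. CPM used TMM-scaled totals, and SE came from the F statistic. The limit for a count of 0 was set at 3 counts and covers counting error only. On simulated counts for 15355 genes edgeR recovered 89% of 100 genes changed 2-fold and 96% of 100 changed 4-fold. It made 21 false calls over all genes, against 4 for DESeq2, which recovered 83% and 96%. Far fewer genes were changed in this simulation than were called in the data. Alternatives were DESeq2 size factors, library totals, DESeq2 1.42.0, a replicate block, limma-voom (limma 3.58.1), no filter, a mean count of 50 or more, halved counts, mitochondrial genes left out, pseudogene counts added, a fold change over 1.5, longest transcript length and each library left out. Gene models came from GENCODE 29 and promoter sequence from RefSeq (GRCh38.p14), with an entry for 6 of the 7 members.

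Genes were named by rule: the 7 members, MUC1, the pseudogenes with the highest counts, the 5 genes nearest SFN in pattern, its 3 nearest tested genes per side, all listed regulators and markers, and the 5 largest changes past an adjusted p of 0.05 with a mean of at least 20 counts in each other list. Members and lists were chosen with earlier results of these data known. 2 listed genes and 1 gene list are not reported here, and list counts are without them.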

Additional observations from a re-analysis of the deposited data

How the results depend on the processing

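YWHAG, YWHAZ, YWHAB and MUC1 held direction and call in each of their 16 alternatives, with ranges of -0.68 to -0.65, -0.66 to -0.62, 0.09 to 0.16 and -1.02 to -0.75 on the log2 scale. SFN, with no test, ranged from 6.13 to 6.47, both from fits without 1 library. Leaving out 1 library gave from -0.15 to -0.0649 for YWHAE, from -0.11 to -0.0677 for YWHAQ and from -0.15 to -0.0647 for YWHAH. YWHAH passed the threshold with DESeq2 size factors (-0.0939), library totals only (-0.11), a mean of at least 50 counts (-0.11), halved counts (-0.0973) and mitochondrially encoded genes left out (-0.0907). The cause was not tested.

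Libraries with the same replicate number showed no shared deviation (correlations 0.0167, -0.0311 and -0.0359), so the numbers were not read as a pairing. Under a replicate block YWHAH was at -0.0914 (edgeR adjusted p 0.0372), COL1A1 lost its call at -0.54 (edgeR adjusted p 0.0718), and no other call on the genes named changed.

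Past both thresholds were 177 higher and 275 lower genes when a mean count of 50 was required, where fewer genes were tested, and 846 and 1280 when a 1.5-fold change was enough. With the longest transcript as length, SFN made up 3.65% of the family sum in shMUC1 cells. In control and shMUC1 cells the shares were 5.53% and 6.43% for YWHAB, 5.12% and 5.01% for YWHAE, 10.3% and 6.93% for YWHAG, 7.9% and 7.87% for YWHAH, 67.2% and 67.5% for YWHAQ, and 3.87% and 2.63% for YWHAZ.

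Of the lists, the 14-3-3 partner median was 0.0761 with library totals only and 0.0455 under the 50-count minimum, and ran from 0.0724 to 0.11 without 1 library each. The median of the SFN regulators was -0.22 under the 50-count minimum and ran from -0.12 to -0.0761 without 1 library each. The number of regulators higher was 0 with library totals only, under the 50-count minimum and under DESeq2, and 0 to 1 without 1 library each. The stratified epithelium median was 1.16 with no low-count filter and 0.64 with halved counts, and ran from 0.70 to 1.01 without 1 library each.

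Among the 40 other genes named, 599 of 633 alternative values kept direction and side of the threshold, and 7 reversed, all for genes past no threshold: COP1 with library totals only (-0.000705), under the 50-count minimum (-0.00184) and without 1 library (-0.0401 to 0.0797), TP63 (-0.0647 to 0.95) and PIGV (-0.17 to 0.103) without 1 library. Depth limits SFN in control, with 22 counts or fewer per library.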
